A study of Mus musculus with 2 samples.

Results

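A set of 9 genes from the tyrosine kinase signalling core of blood cells was examined in mouse common myeloid progenitors (CMP). Their symbols were matched through the gene identifiers of both deposited gene tables, and all 9 were found among 21461 nuclear protein-coding genes. The 6 kinases are Lyn, Fgr and Fyn of the SRC family, Syk, and Btk and Tec of the TEC family. The 3 phosphatases are Ptpn6 (SHP1), Inpp5d (SHIP1) and Ptprc (CD45). The study sequenced total RNA from primary CMP of adult male C57BL/6J mice aged 5 to 6 weeks, with no treatment, allele or second condition named in the labels. Its 1 group holds 2 biological replicate libraries, each made from a pool of 100 cells, with RNA over 200 nucleotides kept and spike-ins added. Both libraries carry the same donor identifier, so the spread between these 2 libraries may be technical. A p-value for a gene pair measures only that spread, pooled over all genes, and not the spread of the pair alone. The exact tests between the libraries measure counting error alone, as if each count were a separate molecule. Because no second condition exists, the comparisons are between genes within a library and between the libraries.

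SRC family kinases sit at the inner face of the plasma membrane and phosphorylate tyrosine motifs (ITAMs) in the tails of receptor chains. SYK binds phosphorylated ITAMs through its paired SH2 domains, and TEC kinases, drawn to the membrane by the lipid product of PI3 kinase, then activate phospholipase C gamma. SHP1 and SHIP1 are recruited to inhibitory motifs (ITIMs), where SHP1 removes phosphate from tyrosines and SHIP1 removes a phosphate from that lipid. CD45 acts in both directions, since it takes the inhibitory phosphate off the tail of SRC kinases and can also dephosphorylate their activation loop. In myeloid progenitors these enzymes act below cytokine, Fc and adhesion receptors.

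The replicate 1 library held 28916263 expected counts, and the replicate 2 library 26426710. Levels are given as TPM (transcripts per 1000000), a length-corrected unit, and a gene was called detected where each library gave it 1 TPM or more. Of 6 genes tied to the CMP gate, 3 were detected, with Kit at 98.1 and 93.0 TPM, Cd34 at 74.5 and 55.4 TPM and the Fc gamma receptor gene Fcgr2b at 2.48 and 9.59 TPM in replicates 1 and 2. Fcgr3, another Fc gamma receptor gene, had 0.64 and 4.27 TPM. Ly6a and Il7r, which CMP gates exclude, were listed at 0 in both. Of markers of other cells, 0 of 8 T and NK cell genes, 1 of 8 B cell genes, 3 of 8 neutrophil genes, 4 of 8 monocyte genes, 4 of 8 mast cell and basophil genes, 4 of 6 megakaryocyte genes and 4 of 6 erythroid genes were detected. Of the 8 B cell genes, 4 were listed at 0 in both libraries, among them Cd79a, Pax5 and Ms4a1. Of the 8 T and NK cell genes, 6 were, among them Cd3d, Cd3e and Cd3g. Other genes of these lists had counts. Cd79b had 7.60 and 12.2 TPM in replicates 1 and 2, Vpreb1 5.21 and 0.09 TPM and Cd22 0 and 1.60 TPM. Lck had 0.10 and 3.35 TPM and Cd4 0.10 and 0.46 TPM. The megakaryocyte list summed to 121 TPM in replicate 1 and 223 TPM in replicate 2, the monocyte list to 52.6 and 32.0 TPM, and the mast cell and basophil list to 63.1 and 32.5 TPM. Their part in the members' levels was not tested. In pooled cells, fewer cells of a type and less RNA per cell cannot be told apart.

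Of the 9 genes, 8 were detected in both libraries, beside 44.9% of all nuclear protein-coding genes. The exception was Fgr. The median over the 9 members was 23.8 TPM in replicate 1 and 26.4 TPM in replicate 2, beside 0.32 and 0.56 TPM over all nuclear protein-coding genes. The 8 detected members lay between the 69.5th and the 95.8th percentile of that gene set. The plot of member levels shows each library's value.

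**Figure D1:**
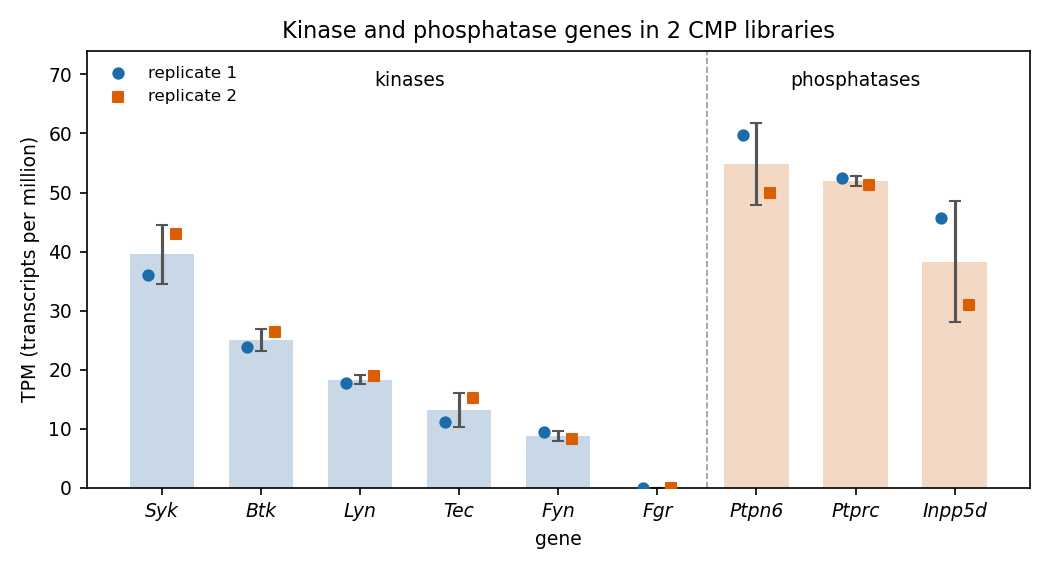
TPM of the 6 kinase genes (left) and 3 phosphatase genes (right) in the 2 CMP libraries. Bars are means, error bars are SD (n = 2) and points are the libraries. Kinase means run from 0 TPM (Fgr) to 39.5 TPM (Syk), and phosphatase means from 38.3 TPM (Inpp5d) to 54.9 TPM (Ptpn6).

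Among the SRC family kinases, Lyn, the form best known from myeloid cells, where it serves both activating and inhibitory receptors, had 17.8 TPM in replicate 1 and 18.9 TPM in replicate 2 (1200 and 1243 expected counts). Fyn, which is known from T cells and brain and is also used by mast cells, had 9.43 and 8.22 TPM (450 and 463 counts). Fgr, a kinase of mature granulocytes and monocytes, had 0 counts in both libraries. Lyn was the highest of the 3 in both libraries, and its range did not overlap that of Fyn. Lyn lies at chr4:3678115-3813122, Fyn at chr10:39368855-39565381 and Fgr at chr4:132974095-133001910, all on the plus strand (GRCm38, GENCODE M21). Of the genes annotated on the opposite strand within Lyn, the lincRNA Gm26857 had 12 and 0 counts and a pseudogene 0 and 1, and those within Fyn had 0.

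With Fgr at 0, the other members could be set against it only as bounds. The 3 counts that a count of 0 allows correspond to 0.0734 TPM in replicate 1 and 0.0741 TPM in replicate 2. Taking the lower library each time, Lyn was at least 242-fold higher than Fgr, Fyn at least 111-fold higher and Ptprc at least 692-fold higher. These floors cover counting error only. Posterior means, the authors' second set of estimates, put Fgr at 0.25 and 0.26 TPM, above the floors, beside 17.3 and 18.4 TPM for Lyn, so the bounds hold for the counts and not for those estimates.

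Of 5 further SRC family kinases and relatives, 0 were detected in both libraries. Lck had 0.10 and 3.35 TPM (4 and 47 counts) and Src had 0 and 0.56 TPM. Blk had 0 and 0.02 TPM, and Frk and Yes1 were listed at 0 in both. Of the 8 genes of this family reported here, Lyn and Fyn were the detected ones.

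Lyn RNA was divided between the forms that the annotation gives it. They differ within the first coding exon, and the A form has 512 codons and the B form 491.

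The A form held 61.2% of Lyn TPM in replicate 1 and 30.1% in replicate 2, on 741 and 385 expected counts. The B form held 38.9% and 68.4%, on 459 and 855 counts. The form in the majority therefore differed between the libraries. The log2 ratio of the gene's total count, replicate 1 over replicate 2, was -0.02 with TMM scaling (exact binomial test, adjusted p = 0.729) and -0.23 with total-count scaling (exact binomial test, adjusted p = 0.00019). The leading entry, Lyn-202 (the B form), had 38.3% of Lyn counts in replicate 1, against 68.8% in replicate 2 (Fisher's exact test, adjusted p = 1.3e-51 over 7176 genes). That p covers counting error only, and the counts are the authors' division of reads between forms that share most of their sequence. Posterior means placed the A form at 60.7% and 28.9%.

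Fyn also differed in form. Mutually exclusive exons 7A and 7B encode the linker between the SH2 and kinase domains and the start of the kinase domain. The form with exon 7A is known as FynB, the brain form, and that with exon 7B as FynT, the form of T cells and other blood cells. Exon 7A has 165 bases (chr10:39529437-39529601) and exon 7B has 156 (chr10:39529919-39530074), both on the plus strand of GRCm38. Aligned over 171 columns, they share 95 bases, or 55.6%. Each is printed in capitals between 15 bases of the flanking exons, which are the same in both.
Fyn exon 7A: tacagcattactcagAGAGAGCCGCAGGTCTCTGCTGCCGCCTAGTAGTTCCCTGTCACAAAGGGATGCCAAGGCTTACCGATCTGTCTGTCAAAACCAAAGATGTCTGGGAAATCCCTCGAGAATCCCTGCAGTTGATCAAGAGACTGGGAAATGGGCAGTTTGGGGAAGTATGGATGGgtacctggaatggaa
Fyn exon 7B: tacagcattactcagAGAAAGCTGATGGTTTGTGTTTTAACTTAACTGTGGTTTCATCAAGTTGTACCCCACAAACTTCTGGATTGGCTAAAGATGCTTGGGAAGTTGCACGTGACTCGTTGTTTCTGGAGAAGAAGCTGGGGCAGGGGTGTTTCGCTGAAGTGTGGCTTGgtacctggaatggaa

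The single entry with exon 7A had 0 counts in replicate 1 and 312 in replicate 2, or 0% and 55.0% of Fyn TPM. The 4 entries with exon 7B had 426 and 140 counts, or 76.0% and 32.4%. In replicate 1 every count of an entry with either exon went to the exon 7B form, and in replicate 2 most went to exon 7A. Posterior mean estimates gave exon 7A 10.7% in replicate 1 and 47.2% in replicate 2, so the value of 0 is not shared by both of the authors' estimates. The leading entry Fyn-201 had 70.9% of Fyn counts in replicate 1 and 8.64% in replicate 2 (Fisher's exact test, adjusted p = 2.07e-89). That difference of 62.3 points was larger than in 89.95% of the 7176 genes tested, over which the median absolute difference was 13 points.

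Syk was the highest kinase, with 36.01 TPM in replicate 1 and 43.0 TPM in replicate 2 (3280 and 3666 counts). The gene lies at chr13:52583173-52648792 on the plus strand. It held 36.7% and 38.5% of the summed kinase TPM. Its relative ZAP70, the SYK family kinase of T and NK cells, was listed at 0 in both libraries.

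The long form of Syk carries a linker exon of 69 bases between the second SH2 domain and the kinase domain (chr13:52624708-52624776, plus strand, GRCm38). The insert is absent from the short form, SykB. It is shown in capitals with 15 bases of the adjoining exons because it marks the form that most Syk counts were given to.
Syk linker exon: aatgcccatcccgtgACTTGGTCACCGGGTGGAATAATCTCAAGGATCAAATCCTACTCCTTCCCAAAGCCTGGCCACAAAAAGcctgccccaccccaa

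Coding entries that hold the linker exon had 2883 and 3017 counts in replicates 1 and 2, or 77.8% and 67.5% of Syk TPM. The entry that skips it, which also has another last exon, had 0 and 77.4 counts, or 0% and 3.72%. The long form thus led in both libraries. Start sites were less alike: entries from the downstream start held 77.0% of Syk TPM in replicate 1 and 53.5% in replicate 2, and those from the upstream start 23.1% and 46.5%. Syk-201, which begins at the downstream start and has the same 1887 coding bases as the upstream Syk-203, had 75.2% and 43.2% of Syk counts (Fisher's exact test, adjusted p = 5.5e-163). Intron-retaining entries took 22.2% and 28.8% of Syk TPM.

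Of the TEC family, Btk, the kinase lost in X-linked agammaglobulinaemia and also used by myeloid and mast cells, had 23.8 TPM in replicate 1 and 26.4 TPM in replicate 2 (1136 and 1094 counts). Tec, the founding member of the family, known from haematopoietic progenitors and myeloid cells, had 11.2 and 15.3 TPM (408 and 524 counts). Btk (chrX:134542336-134583570, minus strand) was above Tec (chr5:72755716-72868483, minus strand) in both libraries. The other SYK and TEC family genes reported, Txk, Bmx and Zap70, had at most 0.02 TPM in either library, and 2 of the 3 were listed at 0 in both.

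The full-length coding entry Btk-201 had 91.5% of Btk counts in replicate 1 and 70.1% in replicate 2 (Fisher's exact test, adjusted p = 1.59e-38). Most of the remainder was an intron-retaining entry, with 90.2 and 315 counts and 89.9% of its bases in exons of Btk-201. As TPM, coding entries of Btk came to 21.3 in replicate 1 and 15.7 in replicate 2, so they were lower in replicate 2 while the gene total was higher there.

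The division of Tec between entries was unlike in the 2 libraries. Its 3 coding entries had 0 counts in replicate 1 and 223 in replicate 2, or 0 and 4.49 TPM. Entries annotated as targets of nonsense-mediated decay, a pathway that removes RNA with an early stop codon, took 387 and 267 counts, or 80.5% and 46.8% of Tec TPM. The leading entry Tec-208 is of this kind, lies in the 3′ part of the gene and has 14 exons, and 99.2% of its bases are also in exons of the coding entry Tec-203. Posterior means gave coding entries 6.82% in replicate 1 and 30.7% in replicate 2. The gene's level was thus of one order in both libraries, while its division between coding and decay-target entries was not.

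Ptpn6, which encodes SHP1, the main ITIM-bound tyrosine phosphatase of blood cells, had the highest mean of all 9 genes. Its level was 59.8 TPM in replicate 1 and 49.96 TPM in replicate 2 (1774 and 1591 counts). The gene lies at chr6:124720707-124738714 on the minus strand. Transcription from a distal and a proximal start is known for the human gene, the distal one from epithelial cells and the proximal one from blood cells. The proximal full-length entry Ptpn6-202 had 72.0% of Ptpn6 counts in replicate 1, against 81.5% in replicate 2 (Fisher's exact test, adjusted p = 1.65e-10). Entries from the distal start had 416.6 and 206.5 counts, or 23.5% and 13.0%. The proximal start was thus in the majority in both libraries.

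Short entries weigh heavily on Ptpn6 in TPM. Its 7 entries under 1000 bases took 4.45% of its counts in replicate 1 and 5.46% in replicate 2, but 34.1% and 29.0% of its TPM. In replicate 1 most of that was an entry of 330 bases, with 76.3 counts and 19.9 TPM. In replicate 2 it was an entry of 456 bases, with 81.9 counts and 13.6 TPM. Each of these had 0 counts in the library where the other was high, and 100% of the bases of each are also in exons of Ptpn6-202. Coding entries of 1000 bases or more came to 39.4 and 35.5 TPM.

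Inpp5d, which encodes SHIP1, the lipid phosphatase that acts against PI3 kinase, had 45.6 TPM in replicate 1 and 31.0 TPM in replicate 2 (2830 and 2318 counts). The gene lies at chr1:87620312-87720507 on the plus strand. It differed most between the libraries of the 8 detected members by TPM, with a ratio of 1.47 for replicate 1 over replicate 2. Its effective length, the length over which the authors' TPM spreads the counts, was 3020 bases in replicate 1 and 3645 bases in replicate 2. Coding entries alone had 23.9 and 24.3 TPM, or 24.1 ± 0.283 (SD, n = 2). The excess in replicate 1 lay in entries with no full coding sequence: 10.9 and 6.76 TPM in other non-coding entries, 7.35 and 0 TPM in an intron-retaining entry of 364 bases, and 3.51 and 0 TPM in a decay target.

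Inpp5d transcripts began at separate sites. Long entries from an internal start open at chr1:87676239 (plus strand, GRCm38), in a first exon of 132 bases whose end is shared with exon 6 of the longest transcript. They lack the 5 exons before it, and Inpp5d-208 has 2784 coding bases against 3573 in the longest entry. An internally started form of the mouse gene, s-SHIP, is known from stem and progenitor cells and lacks the SH2 domain. Internal-start entries held 32.0% of Inpp5d TPM in replicate 1 and 51.1% in replicate 2, on 1180 and 1287 counts. Long entries from the upstream start held 28.04% and 27.1%, on 1240 and 824 counts. The internal-start entries were the higher of the 2 groups by TPM in both libraries, but not by count in replicate 1.

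Ptprc, the receptor phosphatase CD45 found on nearly all nucleated blood cells, had 52.5 TPM in replicate 1 and 51.3 TPM in replicate 2 (3373 and 3205 counts). The gene lies at chr1:138062861-138175708 on the minus strand. It was the steadiest detected member by TPM, with a coefficient of variation of 1.65%. Little of this level was assigned to coding RNA. The 8 intron-retaining entries of the gene held 76.9% of its TPM in replicate 1 and 78.3% in replicate 2. Genes with such an entry and 1 TPM or more in the library in question numbered 4369 and 4429. The Ptprc share was higher than in 94.5% and 95.8% of them, the median being 14.99% and 16.3%. Coding entries came to 12.1 and 11.2 TPM, and those of 1000 bases or more to 4.14 and 3.83 TPM.

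These intron-retaining entries are not all intronic sequence. Ptprc-201, with 953 and 1389 counts, has 26 exons, and 76.5% of its bases are also in exons of the longest coding entry. Ptprc-210, with 1196 and 615 counts, is a single block of 3384 bases (chr1:138117337-138120720, minus strand) that spans variable exons 5 and 6 and the introns at their sides, with 8.51% of its bases in exons of that coding entry. A130071D04Rik, annotated on the same strand within the gene, had 370 and 242 counts of its own, equal to 11.0% and 7.55% of Ptprc counts, and how the authors' counting divided reads between them is not given in the sources used here.

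CD45 isoforms are set by variable exons 4, 5 and 6, which encode the outer part that antibodies to CD45R recognise. The long coding entry that skips all of them, the RO form, had 387 counts in replicate 1 and 356 in replicate 2, or 7.89% and 7.47% of Ptprc TPM. The long entry that holds all of them had 0 counts in both. Partial entries that hold a variable exon were split by library: the one with exon 5 had 91.5 and 0 counts, and the one with exon 4 had 0 and 38.2. The skipped form was the one long coding form counted in both libraries, with the spanning entry Ptprc-210 holding more counts than it in each. No long coding entry of the gene holds only some of the variable exons. A form of that kind therefore had no long entry to be counted in, and these counts cannot show whether it was present.

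**Figure D2:**
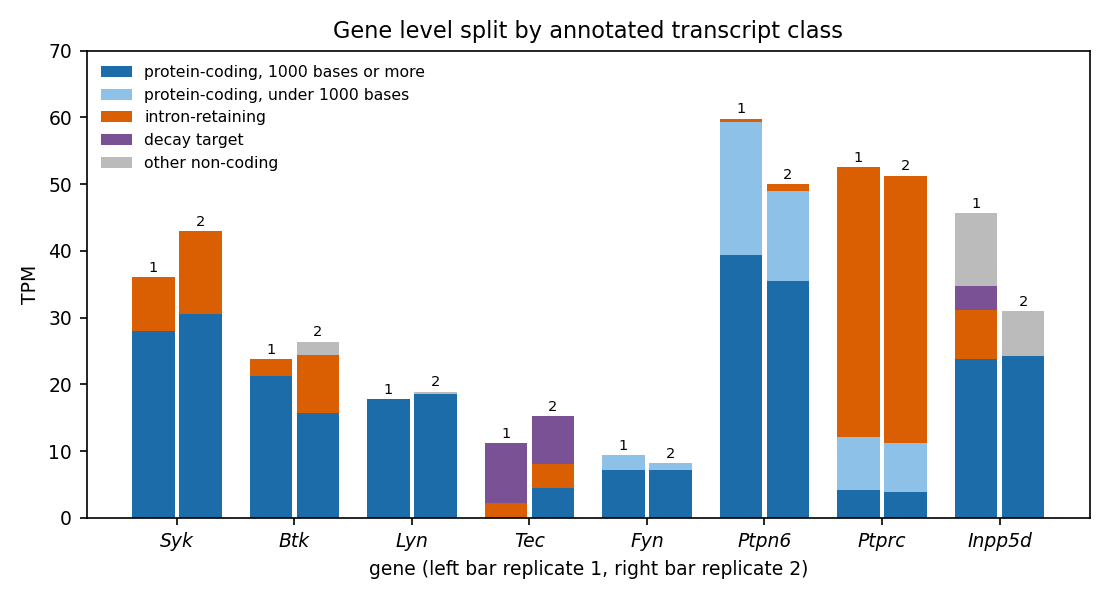
Gene level in TPM split by the annotated class of transcript entry for the 8 detected members, with replicate 1 as the left bar and replicate 2 as the right bar of each gene. Ptprc is mostly intron-retaining (40.4 and 40.1 TPM), Tec mostly decay target in replicate 1 (9.02 TPM), and Ptpn6 holds 19.9 and 13.6 TPM in coding entries under 1000 bases.

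**Figure D3:**
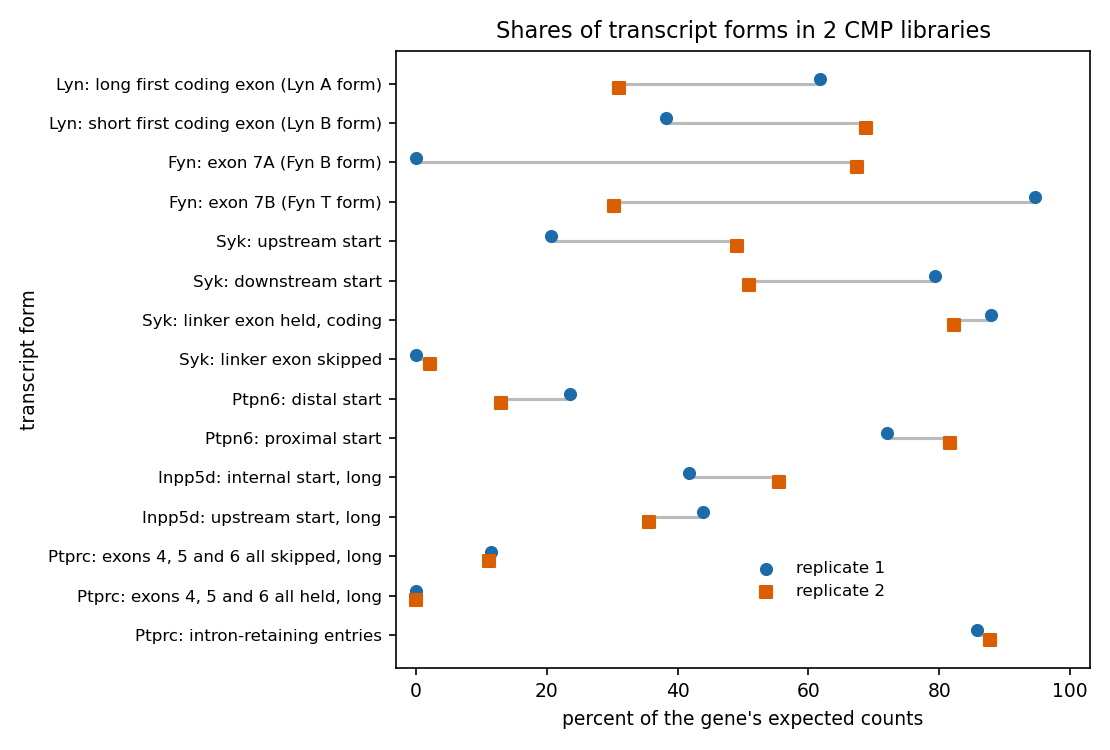
Share of each gene's expected counts held by groups of transcript entries in replicate 1 (circles) and replicate 2 (squares). The Fyn exon 7A form holds 0% in replicate 1 and 67.4% in replicate 2, while the Ptprc form without exons 4, 5 and 6 holds 11.5% and 11.1%.

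The order of mean levels was Ptpn6, Ptprc, Syk, Inpp5d, Btk, Lyn, Tec, Fyn and Fgr. None of the 7 neighbouring pairs among the 8 detected genes passed limma's test, with adjusted p between 0.0967 and 0.898. The error in that test is pooled over all genes and can exceed the spread of a pair alone. The log2 ratio of Lyn over Btk was -0.40 in replicate 1 and -0.46 in replicate 2, with an SE of 0.28. Genes further apart in the order did pass, except for Syk over Ptpn6, Ptpn6 over Inpp5d and Inpp5d over Ptprc. Of 28 pairs of detected members, 18 passed limma's test of the log2 ratio of TPM + 1 over both libraries, with p-values adjusted over 10756 genes in each fit. The 8 pairs with Fgr were not tested. Most genes were called lower than each phosphatase, with the shares given below, so the 18 is not by itself a result about the members.

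Kinases were set against phosphatases in 15 pairs, with the kinase on top. By limma, 11 were lower, 0 were higher and 4 did not pass, and 0 were higher at an unadjusted p under 0.05. Of the 15 ratios, 14 were below 0 in both libraries. The exception, Syk over Inpp5d, was -0.33 in replicate 1 and 0.46 in replicate 2.

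The phosphatases stood above most genes, and the kinase counts have to be read against that. Of all 10756 genes, 84.4% were called lower than Ptpn6 and 5.62% higher, and 4 of 5 detected kinases were lower. For Ptprc the background was 83.7% lower and 6.48% higher, again with 4 of 5 kinases lower. For Inpp5d it was 68.5% lower and 6.70% higher, with 3 of 5 kinases lower. The kinase counts were near these backgrounds and are not a result about the kinases.

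Fyn lay furthest below. Its log2 ratio was -2.54 and -2.47 to Ptpn6 in replicates 1 and 2 (mean -2.50, SE 0.36, limma adjusted p = 1.83e-11). To Ptprc it was -2.36 and -2.50 (mean -2.43, SE 0.27, limma adjusted p = 0.000207). The call against Ptprc was lost by coding entries alone (-0.37, limma adjusted p = 0.262). Fyn TPM did not overlap that of any phosphatase, and the same held for Lyn, Btk and Tec. The share of all genes without overlap was not counted. Most genes were called lower than each phosphatase, so this too is not a result about the kinases.

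Lyn against Ptpn6, the phosphatase that it recruits by phosphorylating ITIMs, had a log2 ratio of -1.70 and -1.36 (mean -1.53, SE 0.30, limma adjusted p = 7.18e-07). Lyn against Inpp5d had -1.31 and -0.69 (mean -0.9996, SE 0.44, limma adjusted p = 0.0307). That call was lost with no variance trend (limma adjusted p = 0.0676) and by coding entries alone (-0.39, limma adjusted p = 0.126). Btk against Inpp5d, which lowers the lipid that brings Btk to the membrane, had -0.91 and -0.22 (mean -0.57, SE 0.43, limma adjusted p = 0.218). Btk was lower than Inpp5d in both libraries, by an amount within the error.

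Syk was the kinase nearest to the phosphatases. It had a mean log2 ratio of -0.46 to Ptpn6 (SE 0.27, limma adjusted p = 0.0932), -0.39 to Ptprc (SE 0.20, limma adjusted p = 0.0967) and 0.06 to Inpp5d (SE 0.42, limma adjusted p = 0.898). None of these passed. Syk over Ptpn6 did pass by posterior means (-0.72, limma adjusted p = 0.00494) and by coding entries alone (-0.86, limma adjusted p = 0.00189). Measured against Syk, 75.9% of all genes were called lower. So were Lyn (-1.06, SE 0.31, limma adjusted p = 0.000893) and Fyn (-2.04, SE 0.35, limma adjusted p = 1.16e-08). Btk and Tec were compared with Syk in separate fits, given below with their own backgrounds.

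**Figure D4:**
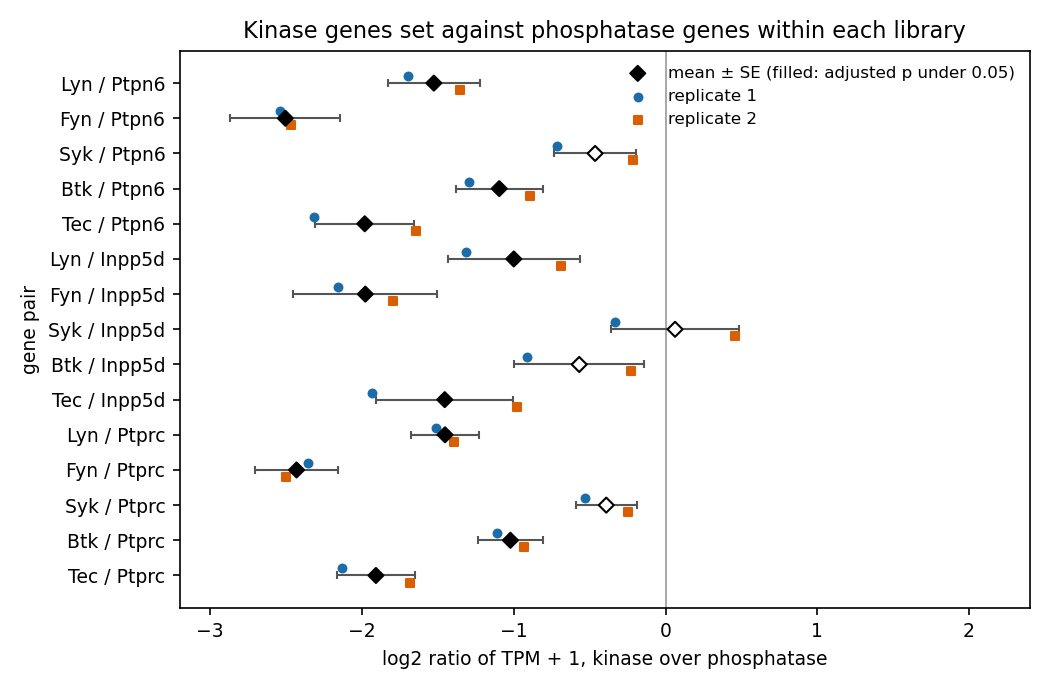
Log2 ratio of TPM + 1, kinase over phosphatase, for 15 gene pairs. Diamonds are means over both libraries with their SE (filled where the adjusted p is under 0.05), circles are replicate 1 and squares replicate 2. The filled diamonds number 11, all left of 0, and the 4 open ones are Syk over each phosphatase and Btk over Inpp5d.

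Among kinases, 7 of 10 pairs passed. The log2 ratio of Syk over Btk was 0.63 (SE 0.25, limma adjusted p = 0.0157), where 16.0% of all genes were called higher than Btk and 62.3% lower. Syk over Tec was 1.52 (SE 0.36, limma adjusted p = 0.000174), with 26.1% of genes called higher than Tec. Lyn over Fyn was 0.98 (SE 0.28, limma adjusted p = 0.00162), with 41.7% of genes called higher than Fyn. By coding entries alone, with Tec at 0 TPM in replicate 1, Syk over Btk (0.65, limma adjusted p = 0.0828), Syk over Tec (3.69, limma adjusted p = 0.654) and Btk over Tec lost their calls. The pairs that did not pass were Lyn over Btk, Lyn over Tec and Fyn over Tec. Among phosphatases, 0 of 3 pairs passed limma's test by gene TPM, and 0 of 3 had an unadjusted p under 0.05. All 3 passed by coding entries alone. Ptpn6 over Inpp5d was then 1.13 (limma adjusted p = 0.000815) and Ptpn6 over Ptprc 2.12 (limma adjusted p = 2.75e-06). Inpp5d over Ptprc turned from -0.45 by gene TPM to 0.99 (limma adjusted p = 0.0038).

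In an alternative added after the data were seen, the error came from the spread of gene levels in place of the spread of the ratio. This spread too was pooled over all genes by limma, and 15 of the 28 pairs passed. The pairs lost were Lyn over Fyn (limma adjusted p = 0.0526), Syk over Btk (0.0869) and Btk over Tec (0.0519), and all 11 kinase and phosphatase calls remained. With 2 libraries a sign-flip test cannot go below a p of 0.5, so the calls rest on the spread shared over all genes.

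Summed over each role, kinases had 98.2 TPM in replicate 1 and 112 TPM in replicate 2, and phosphatases had 158 and 132 TPM. The kinase sum was 0.622 and 0.845 of the phosphatase sum, or 0.733 ± 0.158 (SD, n = 2). It was below the phosphatase sum in both libraries.

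What counts as the level of a gene changed this comparison. Both alternatives here were added after the data were seen. With coding entries alone, the kinase sum was 76.5 and 77.7 TPM and the phosphatase sum 95.3 and 84.5 TPM, a ratio of 0.802 and 0.919. With coding entries of 1000 bases or more, kinases had 74.2 and 76.6 TPM and phosphatases 67.4 and 63.6 TPM, a ratio of 1.10 and 1.21. The order of the sums was therefore turned when intron-retaining, decay-target, other non-coding and short entries were left out.

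Most of that turn was Ptprc. By coding entries of 1000 bases or more, Syk over Ptprc was 2.60 on the log2 scale (SE 0.18, limma adjusted p = 4.87e-11), Btk over Ptprc 1.95 (SE 0.21, limma adjusted p = 3.93e-08) and Lyn over Ptprc 1.95 (SE 0.21, limma adjusted p = 3.63e-08). Fyn over Ptprc was 0.71 (SE 0.29, limma adjusted p = 0.0418). All 4 were negative by gene TPM. Against Ptpn6, Lyn (-1.0002), Fyn (-2.23) and Btk (-0.99) stayed lower, and Tec, at 0 TPM on this measure in replicate 1, stayed below Ptpn6 and Inpp5d. Lyn over Inpp5d (-0.39, limma adjusted p = 0.0833) and Tec over Ptprc (-1.09, limma adjusted p = 0.188) lost their calls.

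Between the libraries, with TMM scaling, the median difference of the members in total count was below that of all protein-coding genes. The absolute log2 ratio of replicate 1 over replicate 2 ran from 0.01 (Fyn) to 0.33 (Tec), with a median of 0.12. The median was 0.45 over 11656 protein-coding genes and 0.25 over 5587 with 400 or more counts in each library. Tec (0.33) and Inpp5d (0.32) were above the latter value. An exact binomial test against counting noise called 5 of the 8, beside 78.2% of all genes. Syk (-0.13) and Tec (-0.33) were lower in replicate 1, as were 40.6% of all genes, and Ptpn6 (0.18), Inpp5d (0.32) and Ptprc (0.10) were higher there, as were 37.6%. Scaling to total counts moved the median of all genes to -0.22, against -0.02 with TMM scaling, and called 6 members. Ptpn6 (-0.0173, exact binomial adjusted p = 0.758) then turned and lost its call, Ptprc (-0.10, exact binomial adjusted p = 0.00676) turned and was called lower in replicate 1, and Lyn (-0.23) and Fyn (-0.22, exact binomial adjusted p = 0.0313) gained calls. With the common dispersion of 0.575 estimated over all genes from both libraries, edgeR's exact test called 0 of the 8, as it did of all 13616 genes. At an unadjusted p under 0.05 it called 0 of the 8 and 1541 of all genes. The dispersion was taken from the same difference between the libraries that edgeR then tested, so this test cannot decide whether the members differ.

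All 8 detected members differed in the share of their leading transcript by Fisher's exact test, beside 77.9% of the 7176 genes tested. The share is thus unlike between the libraries for most genes, and the members are no exception. Ptpn6 moved least among them, by 9.49 points. Of the 70 entries of the 9 genes, those with counts in both libraries were 2 of 4 for Lyn, 2 of 9 for Fyn, 4 of 5 for Syk, 2 of 5 for Btk, 2 of 8 for Tec, 3 of 11 for Ptpn6, 4 of 11 for Inpp5d and 7 of 13 for Ptprc.

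The genes around the members in the pathway were read from lists. The brakes on SRC kinases, 8 genes for kinases of the inhibitory tail tyrosine, an adaptor, phosphatases and ubiquitin ligases, were all detected, with a median of 9.48 TPM in replicate 1 and 15.1 TPM in replicate 2. Csk, which phosphorylates the tail tyrosine that CD45 clears, had 43.9 and 57.7 TPM. Ptpn12 had 32.0 and 39.5 TPM and Ptpn18 11.0 and 33.9 TPM, both being phosphatases of the PEST family. By expected counts Ptpn18 differed less, with 340 in replicate 1 and 419 in replicate 2. Between the libraries 2 of the 8 were called higher and 5 lower in replicate 1, beside 77.8% of protein-coding genes called in either direction. Over all genes 37.6% were called higher and 40.6% lower, which is the background of the counts for the lists that follow.

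Of 13 other phosphatases, 11 were detected. The highest were Ptpn7, which acts on MAP kinases, at 46.8 and 47.9 TPM, Ptpre at 22.0 and 35.2 TPM, and Ptpra at 28.6 and 21.5 TPM. Ptpn11, the SHP2 phosphatase that promotes receptor signalling and is the closest relative of Ptpn6, had 15.6 and 15.4 TPM. Inppl1, the SHIP2 relative of Inpp5d, had 0.61 and 2.39 TPM. Ptpn11 and Inppl1 are outside the rule for naming genes and were chosen as relatives of members after their values were seen. Ptpn6 and Inpp5d were above these relatives in both libraries. Of the 13, 5 were called higher and 4 lower in replicate 1.

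Receptor chains that feed the kinases were read next. Of 6 activating ITAM chains, 3 were detected, beside 44.9% of all nuclear protein-coding genes. They were Tyrobp (DAP12) at 52.5 and 43.9 TPM, Fcer1g (the Fc receptor gamma chain) at 12.5 and 21.04 TPM, and Cd79b, a chain of the B cell receptor, at 7.60 and 12.2 TPM. Its partner Cd79a and the T cell chain Cd3e were listed at 0 in both. Of the 4 tested, 1 was called higher and 3 lower in replicate 1.

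Of 15 matched receptors with inhibitory motifs, 10 were detected, with a list median of 2.48 and 2.73 TPM. Pecam1 had 20.0 and 17.3 TPM, Clec12a 18.5 and 8.46 TPM and Sirpa 6.65 and 17.5 TPM. Cd33 (0.62 and 0.28 TPM), Pilra (0.09 and 0 TPM) and Cd300lf (0 in both) were below 1 TPM. Of the 13 receptors tested, 8 were called higher in replicate 1 and 3 lower, beside 37.6% and 40.6% of all genes.

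Of 29 adaptors and effectors, which share Cbl with the brakes, 27 were detected, with a median of 16.7 TPM in each library. Pik3r1, the regulatory subunit of PI3 kinase, had 54.5 and 54.0 TPM, Prkcd, a protein kinase C, 53.5 and 49.2 TPM, and the adaptor Fyb 37.8 and 58.5 TPM. Blnk, the adaptor that links SYK to BTK in B cells, had 0.90 and 0 TPM, and Prkcb 0.09 and 0 TPM. Of the 28 adaptors and effectors tested, 11 were called higher in replicate 1 and 7 lower, beside the same 37.6% and 40.6%.

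**Figure D5:**
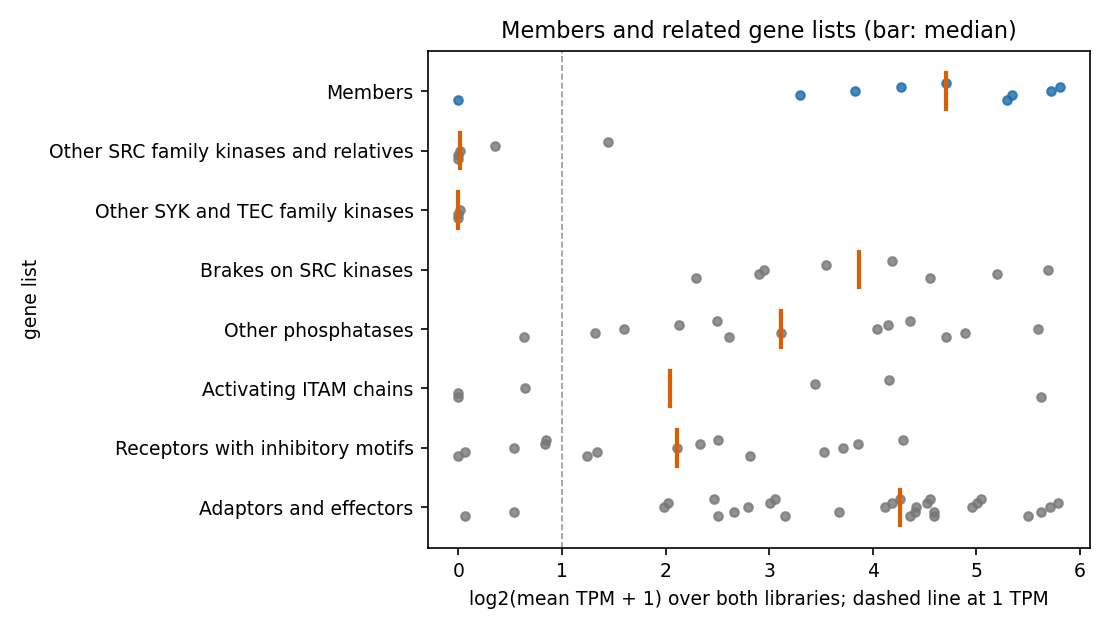
Mean level over both libraries, as log2(mean TPM + 1), of each member (top row) and of each gene in the 7 related lists, with a bar at the list median and a dashed line at 1 TPM. All members but Fgr lie to the right of the line, as do all 8 brakes on SRC kinases, and the other SYK and TEC family kinases lie at 0 or close to it.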

How the data were processed

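Per the labels, each library is total RNA of 100 pooled CMP. The authors deposited expected counts, TPM and percent shares per gene or transcript, aligned to mm10 with GENCODE M4 per the file headers and accompanying notes. No source used here gives the aligner, the quantifier or whether counting used strand. Deposited percent values are shares of gene TPM. Lengths are in bases. The deposited FPKM values were not used.

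Symbols came from GENCODE M21 by unversioned identifier, for 42462 of 43346 genes. For pairs, log2(TPM + 1) of each gene minus that of a member was fitted with limma 3.58.1 over genes at 1 TPM or more in a library. Libraries were compared with TMM factors from edgeR 4.0.16 by an exact binomial test, two-sided, of expected counts rounded to whole numbers (10 or more in a library), with DESeq2 1.42.0 size factors as an alternative, and leading transcripts by Fisher's exact test (50 or more counts). All used Benjamini-Hochberg adjustment at 0.05. The tests were checked on simulated data. Of each related list, at most the 3 highest genes and 3 below 1 TPM are named. Some genes of the related lists and 1 sequence are not reported here. Members, lists and tests were chosen with earlier results of these data known.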

Additional observations from a re-analysis of the deposited data

How the results depend on the processing

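The number of detected members was 8 at thresholds of 0.5 and 5 TPM, by posterior means and in either library, and 7 by coding entries. The 18 called pairs were 15 to 19 under the pseudocount, rescaling, trend, minimum and posterior mean alternatives. With no variance trend Syk over Btk, Btk over Tec and Lyn over Inpp5d lost their calls, and by posterior means Syk over Ptpn6 (-0.72) gained one. By counts per 1000000 without length correction 25 were called, and Syk over Ptpn6 (1.03), Ptpn6 over Inpp5d (-0.60) and Ptpn6 over Ptprc (-0.96) turned; longer genes take more counts by construction. By coding entries alone Lyn (0.60), Syk (1.26), Btk (0.61) and Inpp5d (0.99) over Ptprc turned, and by coding entries of 1000 bases or more Lyn (1.95), Fyn (0.71), Syk (2.60), Btk (1.95) and Inpp5d (2.33) over Ptprc turned, with 6 kinase and phosphatase pairs called lower in place of 11. By either coding measure Syk over Btk, Syk over Tec, Btk over Tec and Lyn over Inpp5d lost their calls. Fyn over Ptprc also lost its call by coding entries alone, and Tec over Ptprc by coding entries of 1000 bases or more. Ptpn6 over Inpp5d and Ptpn6 over Ptprc gained calls by either measure, and Syk over Ptpn6 by coding entries alone. The kinase to phosphatase ratio was 0.897 by counts per 1000000 and 1.15 by coding entries of 1000 bases or more, and 0.622 to 0.845 with a replicate left out. Between libraries, total-count scaling turned Ptpn6 (-0.0173) and Ptprc (-0.10) and called Lyn (-0.23) and Fyn (-0.22), and edgeR at the common dispersion called 0 members in place of 5, while DESeq2 size factors or no count minimum gave 5. Among coding transcripts alone the leading Btk entry turned (-0.67 points) and 7 members were called, Tec falling under the count minimum; minimums of 20 and 200 gave 8. No paired analysis was possible because the labels hold 1 group. Both libraries come from 100 cells, and shares between entries that overlap rest on few distinguishing reads.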
